A study of Mus musculus with 7 samples.

Results

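The sarcomeric myosin heavy chain genes Myh3, Myh2, Myh1, Myh4, Myh8 and Myh13 on mouse chromosome 11 and Myh6 and Myh7 on chromosome 14 were examined for occupancy by RNA polymerase II (RNAP2) and by the clock factors REV-ERBα and BMAL1 in skeletal muscle. These 8 genes, of 21938 annotated protein-coding genes, were chosen by name. Peaks were taken when they overlapped a gene body, lay within 10 kb of an annotated transcription start site (TSS), or lay in the intergenic space of the chromosome 11 cluster. This selection held 165 of the 527903 peaks on the main chromosomes in the deposited lists. The tissue was whole gastrocnemius, a calf muscle, of wild type male C57BL/6J mice aged 5 months. Chromatin was immunoprecipitated for BMAL1 and for RNAP2 at Zeitgeber time (ZT) 4 h and for REV-ERBα at ZT 8 h, with 2 replicates each. Peaks were called against input DNA, and the series holds 1 input library, from ZT 4 h. Each factor was thus seen at 1 time of day only, and factor, antibody and, for REV-ERBα, time of day cannot be told apart.

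Each muscle fiber is built around a dominant myosin heavy chain, whose ATPase speed sets how fast the fiber contracts. Myh4 encodes the chain of the fastest, glycolytic type IIb fibers, Myh1 that of IIx fibers, Myh2 that of IIa fibers and Myh7 the slow chain of type I fibers, which is shared with the heart. Myh3 and Myh8 are the embryonic and perinatal chains, Myh13 is used mainly in extraocular muscle, and Myh6 is the cardiac alpha chain. The mouse gastrocnemius is a mixed muscle made mostly of fast fibers. BMAL1 is the activator of the core clock and binds E-boxes with CLOCK, and REV-ERBα is a nuclear receptor that represses its targets.

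Peaks were called by the authors in each replicate at a lenient p-value of 0.05, and the lists differed in length. On the main chromosomes, RNAP2 replicates 1 and 2 held 87861 and 168821 peaks, REV-ERBα 28881 and 29934, and BMAL1 34737 and 177669. A region was counted when peaks of both replicates of a factor overlapped by at least 1 bp, which left 10752 regions for RNAP2, 1263 for REV-ERBα and 2742 for BMAL1. Read depth at single peaks is unknown from these files. As a check of the tissue, an RNAP2 region lay at 6 of 6 skeletal muscle fiber markers, 2 of 6 heart markers, 0 of 4 smooth muscle markers, 1 of 3 markers each of adipocytes, endothelium and leukocytes, and 0 of 3 liver markers, where 41.1% of all protein-coding genes had one.

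The promoters of the 3 adult fast genes and of perinatal Myh8 are shown because they differ in RNAP2 occupancy while they share a stretch of sequence. Each is the 250 bases before the RefSeq TSS on the plus strand of GRCm38. Capitals mark TATAAA boxes, the E-box CAGCTG, matches to the MEF2 and CArG motifs, and the longest run of bases that the 4 promoters all held.
Myh4, chr11:67237562-67237811: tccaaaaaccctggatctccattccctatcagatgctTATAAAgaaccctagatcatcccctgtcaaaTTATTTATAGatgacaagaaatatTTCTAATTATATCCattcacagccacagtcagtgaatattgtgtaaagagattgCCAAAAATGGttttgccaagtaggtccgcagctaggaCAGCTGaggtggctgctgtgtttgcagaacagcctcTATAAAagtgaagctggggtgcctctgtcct
Myh1, chr11:67199852-67200101: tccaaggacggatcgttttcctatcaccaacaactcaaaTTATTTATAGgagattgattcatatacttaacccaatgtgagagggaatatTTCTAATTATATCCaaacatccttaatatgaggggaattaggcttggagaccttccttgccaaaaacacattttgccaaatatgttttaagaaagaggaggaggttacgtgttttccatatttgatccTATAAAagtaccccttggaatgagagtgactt
Myh2, chr11:67170777-67171026: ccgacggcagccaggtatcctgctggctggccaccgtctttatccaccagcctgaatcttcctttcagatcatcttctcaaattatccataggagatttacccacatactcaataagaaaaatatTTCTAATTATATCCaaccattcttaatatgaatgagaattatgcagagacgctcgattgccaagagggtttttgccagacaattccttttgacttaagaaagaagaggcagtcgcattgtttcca
Myh8, chr11:67276874-67277123: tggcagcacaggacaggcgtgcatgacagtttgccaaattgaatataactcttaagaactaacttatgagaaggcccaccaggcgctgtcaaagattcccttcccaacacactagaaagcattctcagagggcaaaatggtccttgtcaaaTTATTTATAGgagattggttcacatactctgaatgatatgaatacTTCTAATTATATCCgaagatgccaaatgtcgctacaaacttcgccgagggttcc

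The common run TTCTAATTATATCC, 14 bases long and found after the sequences were compared, began at −158 in Myh4, −160 in Myh1, −125 in Myh2 and −54 in Myh8, counted from the RefSeq TSS. Only 4 of 32851 RefSeq promoter windows of this length, those of these 4 genes, held it on either strand. A MEF2 match began at −182 in Myh4, −211 in Myh1 and −99 in Myh8, and 2.92% of all promoter windows held one. In each of these promoters it overlapped a TATAAA on the opposite strand. A further TATAAA began at −31 in Myh4 and −32 in Myh1, and one began at −29 in Myh3, while 12.4% of all windows held the hexamer. Myh4 also held a CAGCTG E-box at −67 and a CArG match at −104, letters that were found in 13% and 1.47% of windows. The E-box CACGTG and the nuclear receptor site AGGTCA were in none of the promoter windows of the 8 genes, against 6.02% and 14% of all windows. The windows of Myh2, Myh13, Myh6 and Myh7 held none of the 6 motifs. A match or its absence describes these letters in this window only.

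RNAP2 was seen far more widely over Myh4 than over the other 7 genes. In replicates 1 and 2, RNAP2 peaks covered 86.6% and 89.3% of the 22.4 kb Myh4 body. The next genes were Myh1, with 5.73% and 6.85%, and Myh2, with 9.26% and 3.37%. Myh8 had 2.88% and 2.42%, Myh13 0.821% and 4.84%, and Myh3 1.75% and 1.62%. The cardiac and slow genes were as sparse, with 1.80% and 1.13% for Myh7 and 0.808% and 2.24% for Myh6. Ordered by the lower replicate, the genes were Myh4, Myh1, Myh2, Myh8, Myh3, Myh7, Myh13 and Myh6, and the replicate ranges of neighbours overlapped except between Myh4 and Myh1, Myh2 and Myh8, and Myh8 and Myh3. By the lower replicate, Myh4 ranked 6 of the 20350 protein-coding genes of at least 2 kb, whose median was 0.746%. In bulk muscle, fewer fibers of a type and less occupancy per nucleus cannot be told apart.

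**Figure D1:**
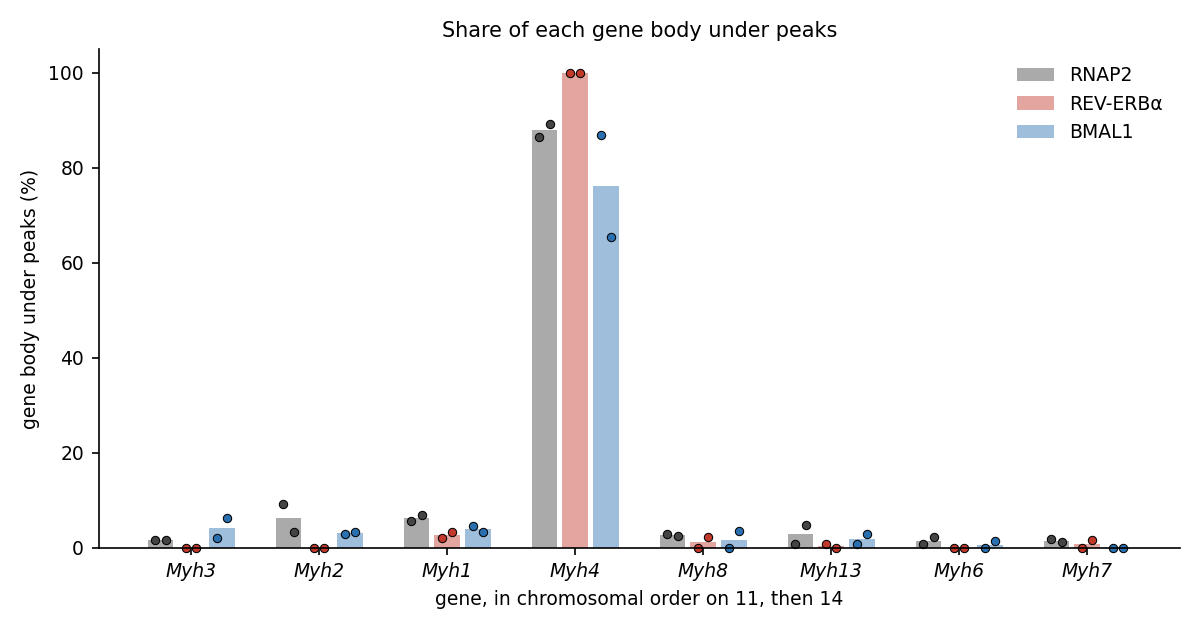
Share of each gene body under peaks (percent) for the 8 myosin heavy chain genes, in chromosomal order. Bars are means of 2 replicates, points are the replicates, and grey, red and blue stand for RNAP2, REV-ERBα and BMAL1. Myh4 lies between 65.5% and 100% for all 3 factors, and every other value is at or below 9.26%.

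REV-ERBα and BMAL1 peaks also spread over Myh4. A single REV-ERBα peak of 25.7 kb in replicate 1 and of 27.3 kb in replicate 2 spanned 100% of the gene body, and each was the widest peak of its list, in which the median widths were 494 bp and 422 bp. BMAL1 peaks covered 86.9% and 65.5% of the body in 5 and 14 peaks. By the lower replicate Myh4 ranked 1 of the 20350 genes of at least 2 kb for both factors. Shorter genes were not ranked, and the muscle gene Tcap, of 1.143 kb, was covered to 100% in both lists of each. For Myh1 the covered shares were 1.99% and 3.40% for REV-ERBα and 4.60% and 3.34% for BMAL1. For Myh2 they were 0% in both REV-ERBα lists and 2.82% and 3.36% for BMAL1. Myh3 had no REV-ERBα peak over its body and 2.17% and 6.28% under BMAL1 peaks.

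The remaining genes had peaks in 1 replicate or none for at least one factor. Myh8 was covered to 0% and 2.27% by REV-ERBα and to 0% and 3.5% by BMAL1. Myh13 had 0.749% and 0% for REV-ERBα and 0.797% and 2.93% for BMAL1. On chromosome 14, Myh7 had 0% and 1.63% for REV-ERBα and 0% in both BMAL1 lists, and Myh6 had 0% in both REV-ERBα lists and 0% and 1.39% for BMAL1. At genes of the cluster other than Myh4, occupancy of the clock factors was thus seen as short isolated peaks, whose presence often differed between replicates.

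By the count of regions shared by replicates, 4 of the 8 genes had an RNAP2 region, namely Myh2, Myh1, Myh4 and Myh8. This is 50% of the genes, near the 41.1% of all protein-coding genes and the 45.7% of those with bodies of 20 to 50 kb. A REV-ERBα region was found at 1 gene, Myh4, or 12.5%, against 4.44% of all genes and 4.54% of genes in that length range. BMAL1 regions were found at 2 genes, Myh1 and Myh4, or 25%, against 6.81% and 5.92%. With 8 genes these counts do not set the family apart from other genes. What set Myh4 apart was the breadth of its regions.

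**Figure D2:**
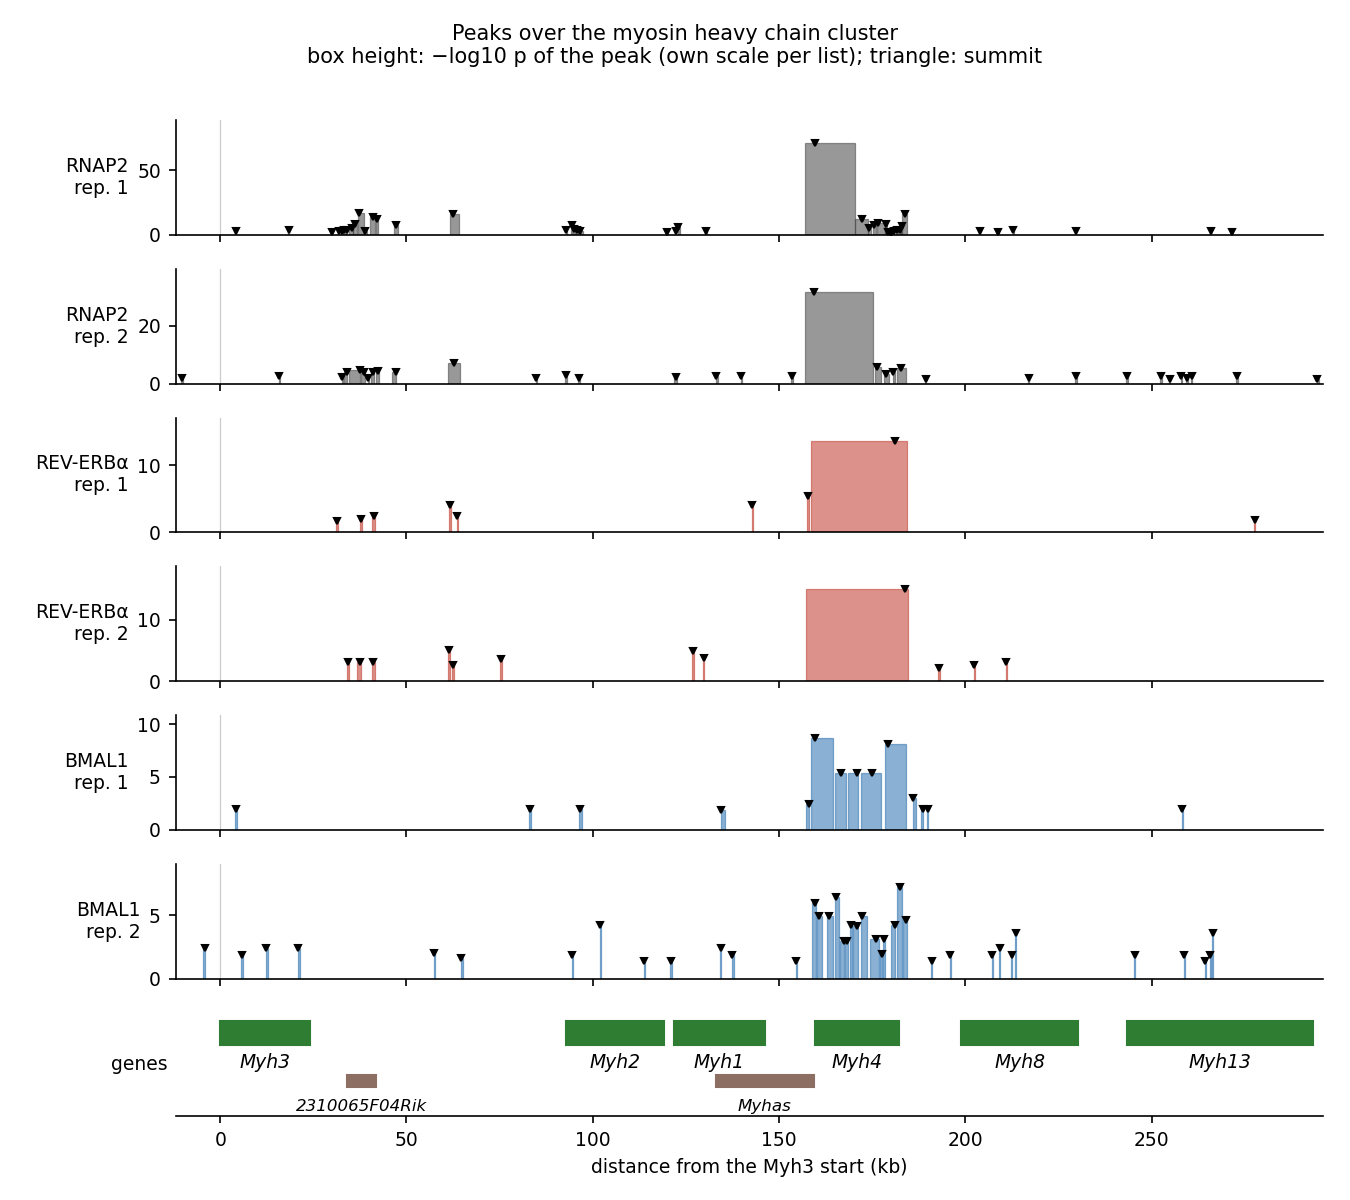
Peaks of the 6 lists over the chromosome 11 cluster, by distance from the Myh3 start (kb). Boxes span the peaks, their height is the −log10 p of the peak on a scale of its own for each list, triangles are summits, green bars are the genes and brown bars the noncoding genes 2310065F04Rik and Myhas. The widest boxes of all lists stand over Myh4, and of the bases under peaks in the cluster 46.1% to 47.0% for RNAP2, 68.2% to 75.4% for REV-ERBα and 57.3% to 69.2% for BMAL1 were in its body.

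Along Myh4, the RNAP2 signal was strongest at the promoter. The strongest peak reached a −log10 p of 71.3 (24.1-fold over input) in replicate 1 and of 31.9 (12.2-fold) in replicate 2. It was 13.3 kb and 18.4 kb wide, the second widest and the widest peak of its list. Its summits lay at −37 bp and −253 bp from the GENCODE TSS of Myh4 at chr11:67238029. RefSeq places the start 217 bp further upstream, and from there the summits were at 180 bp and −36 bp, the latter inside the promoter printed above. The antisense transcript Myhas, which runs from this same promoter toward Myh1, starts 239 bp before the RefSeq TSS, so that the RNAP2 signal at the start of both cannot be told apart. When the body was cut into 5 equal parts, RNAP2 covered 100% of the first and second in both replicates. The last was covered to 54.5% and 58.7%, and a further RNAP2 region with −log10 p of 16.2 and 5.52 extended past the end of the gene.

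REV-ERBα had its strongest summits away from the strongest RNAP2 summits within the same span. These REV-ERBα summits were at the 3′ end, 1630 bp past the annotated end in replicate 2 and at −1012 bp from it in replicate 1. They were 2642 bp apart. The −log10 p was 13.7 and 14.9, with fold enrichments of 5.67 and 5.53. Within their lists these peaks ranked 124 and 119 by p, so the widest REV-ERBα peaks were not the strongest. The lists give a single summit for each peak, and none was at the Myh4 TSS in either replicate. In replicate 1 a separate peak in the 3 kb before the gene had a −log10 p of 5.41. The RNAP2 region past the gene end had its summits at chr11:67262054 in replicate 1 and 67260982 in replicate 2. The REV-ERBα summit of replicate 2, at 67262076, lay beside the former, so REV-ERBα was not apart from RNAP2 there.

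BMAL1 occupancy was broken into several peaks, which formed 5 regions shared by both replicates from chr11:67236847 to 67262672. The region over the TSS had −log10 p of 8.68 and 5.99 and fold enrichments of 4.18 and 3.78, and its summits lay at 17 bp and −44 bp from the GENCODE TSS, 61 bp apart. The region at the 3′ end had −log10 p of 8.09 and 7.22, with the strongest summits 3117 bp apart. The 3 regions between them had −log10 p between 4.25 and 6.43, with the strongest summits 1444 bp to 2446 bp apart. These distances are between the strongest summits, since replicate 2 had 2 or 3 peaks in each region. Weaker summits of replicate 2 lay nearer in places, as at 67249219, beside the replicate 1 summit at 67249203. Ranked by their weaker replicate, the 5 regions stood at places 19 to 43 of the 2742 BMAL1 regions. Of them, only the region at the 3′ end reached a −log10 q of 1.3 in both replicates, with 2.89 and 1.67. The region over the TSS reached it in replicate 1 alone, with 3.41 against 0.618 in replicate 2. The 3 regions between them reached it in neither replicate and stand on the lenient threshold alone.

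**Figure D3:**
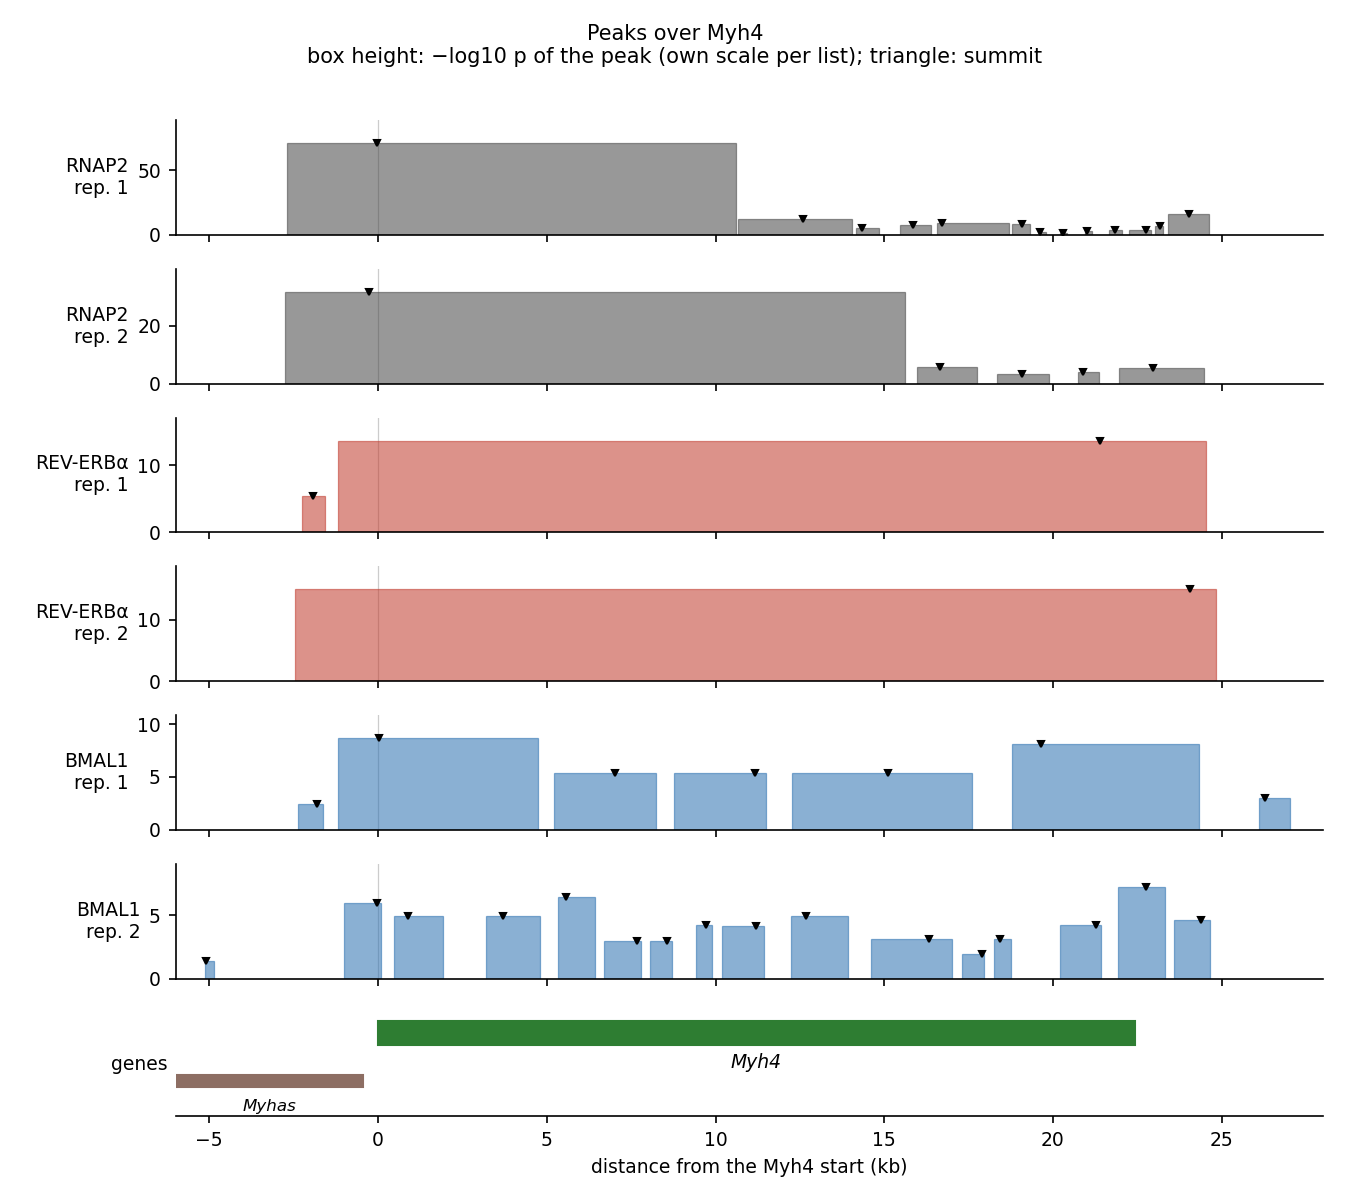
Peaks of the 6 lists around Myh4 by distance from its GENCODE start (kb), drawn as in the plot of the whole cluster. The strongest RNAP2 summits stand at the start at −37 bp and −253 bp, and the strongest REV-ERBα summits at 21405 bp and 24047 bp near the 3′ end. BMAL1 peaks are spread across the body in 5 shared regions.

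The clock factor regions at Myh4, and those of REV-ERBα between Myh3 and Myh2, coincided with RNAP2. All 4 REV-ERBα regions in the cluster, 3 of them in that interval, overlapped RNAP2 regions, against 32.9% of REV-ERBα regions in all lists. This is not a like comparison. The region over Myh4 was 27270 bp wide, against median REV-ERBα peak widths of 494 bp and 422 bp. Another 2 lay at the noncoding gene 2310065F04Rik, of which RNAP2 peaks covered 75.4% and 65.0%. Of the 6 BMAL1 regions in the cluster, the 5 over Myh4 overlapped RNAP2 regions, against 4.38% of all BMAL1 regions. These 5 BMAL1 regions were 2719 bp to 5969 bp wide and overlapped the same RNAP2 region of 22628 bp, so they are not 5 separate loci. No BMAL1 region summit in the cluster had CACGTG within 100 bp, which 2.55% of all BMAL1 regions had, and AGGTCA was near 2 of the 6 summits, against 10.7% of all. At the REV-ERBα regions, AGGTCA was within 100 bp of the summit in 2 of 4, both outside the gene bodies, against 13.1% of all REV-ERBα regions. Of 14164 protein-coding genes of at least 10 kb, 4 had at least 50% of the body under RNAP2 peaks in both replicates, a limit chosen after the values were seen. They were Myh4, the creatine kinase gene Ckm (74.0% in the lower replicate), the fast troponin T gene Tnnt3 (65.1%) and the fast calcium pump gene Atp2a1 (50.2%). All 4 also reached 50% for REV-ERBα, out of 7 genes that did, and Myh4 was the 1 gene to reach it for BMAL1. The part of RNAP2 occupancy or transcription in the REV-ERBα and BMAL1 peaks over Myh4 was not tested.

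Shared sequence can hide occupancy, since the authors removed reads that mapped to several places. Between 0.844% of 50-base stretches in Myh13 and 6.41% in Myh7 were found in another of the 8 genes. For Myh4 it was 4.37%, most of it shared with Myh8, for Myh1 5.93% and for Myh2 6.13%, which share most with each other. Bases of Myh4 under such stretches were covered by RNAP2 peaks to 65.5% and 96.7%, and the other bases to 88.8% and 88.5%. Under such stretches, RNAP2 peaks covered 0% and 2.59% of the bases of Myh1 and 0% in both replicates of those of Myh2. Outside them, RNAP2 peaks covered 6.48% and 7.41% of Myh1 and 10.5% and 3.83% of Myh2. Sequence shared with the rest of the genome was not searched, and the part of removed reads in the coverage was not tested.

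RNAP2 at the other adult fast genes was shared by both replicates in narrow, weak regions. The Myh2 promoter region, chr11:67170966-67171351, had −log10 p of 3.70 and 3.05, with summits at 146 bp and 17 bp from the TSS. A further Myh2 region, chr11:67173904-67175562, had −log10 p of 3.97 and 1.99. At Myh1 the region chr11:67200051-67200804 had −log10 p of 3.21 and 2.26, with summits at 463 bp and 587 bp. The promoter peaks of Myh4, at 71.3 and 31.9, were far stronger. Replicate 1 alone had stronger peaks inside the genes, at 1583 bp in Myh2 (−log10 p of 7.49) and at 1197 bp in Myh1 (5.69). Myh8 had no RNAP2 region at its TSS, and its single region, chr11:67307731-67308214, lay near the 3′ end with −log10 p of 3.21 and 2.6. None of these 4 regions reached a −log10 q of 1.3 in either replicate, so they stand on the lenient threshold alone.

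At the slow gene Myh7 a peak of RNAP2 lay at 517 bp from the TSS in replicate 1, with a −log10 p of 3.38, and replicate 2 had none within 1 kb of a TSS. A BMAL1 peak lay at −197 bp from the Myh7 TSS in replicate 2, with a −log10 p of 2.40, and none did in replicate 1. For Myh6 the sole RNAP2 peak within 1 kb of a TSS, in replicate 1, had a −log10 p of 2.50 and stood at an internal start 23034 bp into the gene. Embryonic Myh3 had no peak of any factor within 1 kb of its TSS in any list. At Myh13 there was 1, of RNAP2 in replicate 2, with a −log10 p of 2.6. No region of any factor was shared by both replicates at the 2 chromosome 14 genes. The BMAL1 region of Myh1, chr11:67212545-67213833, lay 12.7 kb to 12.8 kb into the gene, within the antisense gene Myhas, and had −log10 p of 1.87 and 2.40 with no RNAP2 or REV-ERBα region over it.

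Away from Myh4 and the intervals on either side of it, into which its peaks ran, RNAP2 was also seen in the 68.7 kb between Myh3 and Myh2. RNAP2 peaks covered 16.6% and 16.8% of it, REV-ERBα peaks 3.58% and 5.19%, and BMAL1 peaks 0.588% and 1.2%. RNAP2 lay over the long noncoding RNA gene 2310065F04Rik, of which 75.4% and 65.0% was covered, a share above that of every myosin gene but Myh4. It was overlapped by 3 RNAP2 regions, the strongest with −log10 p of 17.2 and 4.73. A separate RNAP2 region of 3216 bp, chr11:67139503-67142718, had −log10 p of 16.0 and 7.22 and summits at −30190 bp and −30064 bp from the Myh2 TSS, with no GENCODE gene over it. By contrast, the 13.0 kb between Myh8 and Myh13 held a single peak, of RNAP2 in replicate 2.

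REV-ERBα had 3 regions shared by both replicates in this interval, all of them over RNAP2 regions. At 2310065F04Rik they had −log10 p of 2.02 and 3.18 and of 2.50 and 3.18. The strongest, chr11:67139518-67140183, had −log10 p of 4.15 and 4.99 and fold enrichments of 2.90 and 3.24. The summits of the replicates were 139 bp to 158 bp apart in the 3 regions, against 2642 bp over Myh4. None reached a −log10 q of 1.3. No BMAL1 region was shared by both replicates there.

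The window shown is that of the strongest of these REV-ERBα regions. It is the 300 bases centred between the summits, chr11:67139718 and 67139876, on the plus strand of GRCm38, so both fall in it. Capitals mark an E-box CAGCTG and the reverse complement of AGGTCA, 4 bases apart. Of the other regions, the window chr11:67115780-67116079 held AGGTCA but no CAGCTG, and chr11:67119233-67119532 held neither.
REV-ERBα region upstream of Myh2, chr11:67139648-67139947: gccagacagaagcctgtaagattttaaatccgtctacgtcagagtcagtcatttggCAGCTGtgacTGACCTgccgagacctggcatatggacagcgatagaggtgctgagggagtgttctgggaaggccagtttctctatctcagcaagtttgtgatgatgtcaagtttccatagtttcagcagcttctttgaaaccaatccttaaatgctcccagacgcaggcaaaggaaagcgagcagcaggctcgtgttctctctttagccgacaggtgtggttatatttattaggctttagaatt

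The AGGTCA match began at chr11:67139714, at the summit of replicate 2. CAGCTG was within 100 bp of the summit in 12.7% of all REV-ERBα regions and AGGTCA in 13.1%.

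**Figure D4:**
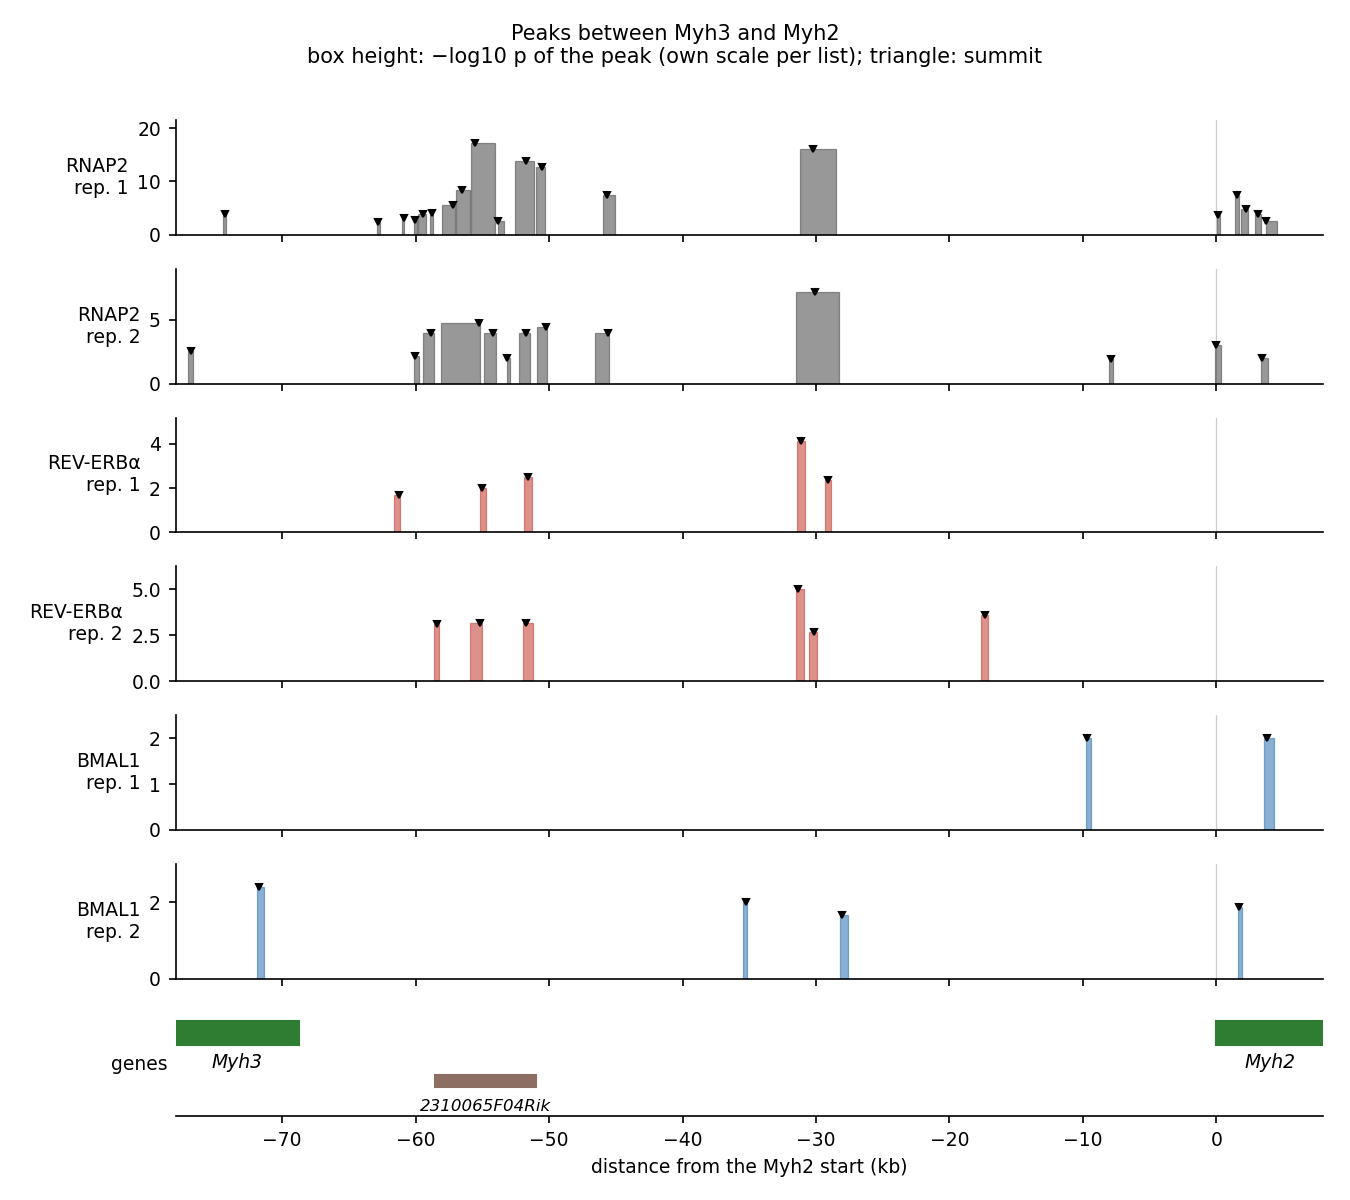
Peaks between Myh3 and Myh2 by distance from the Myh2 start (kb), drawn as in the plot of the whole cluster. RNAP2 boxes gather over the noncoding gene 2310065F04Rik and upstream of Myh2, where the strongest REV-ERBα region of the interval has −log10 p of 4.15 and 4.99, and BMAL1 has no region shared by both replicates.

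Other genes of the fast contractile program were compared with Myh4 through a list of 12 genes named for fast fibers. All 12 had an RNAP2 region, 11 a REV-ERBα region and 9 a BMAL1 region, where 41.1%, 4.44% and 6.81% of all genes had one. The median of the lower covered share was 42.8% for RNAP2, 22.2% for REV-ERBα and 3.86% for BMAL1, against medians over all genes of 0.746%, 0% and 0%. The RNAP2 shares of the lower replicate were largest in the short troponin genes Tnni2 (100%) and Tnnc2 (97.8%), then Tnnt3 (65.1%), and smallest in the calcium store gene Casq1 (17.3%) and the fast actinin gene Actn3 (19.4%). Myh4, at 86.6%, lay among the highest of them, and for REV-ERBα (100%) and BMAL1 (65.5%) it exceeded all 12. Judged by the weaker replicate's −log10 p, REV-ERBα regions were strongest at Atp2a1 (14.6), Tnnt3 (10.1), the muscle enolase gene Eno3 (7.99) and the parvalbumin gene Pvalb (7.79). BMAL1 regions were strongest at Eno3 (4.74), Tnnt3 (4.58), Tnnc2 (4.53) and the fast myosin binding protein gene Mybpc2 (4.25), all below the 7.22 of Myh4. BMAL1 peaks covered 0% of the Eno3 body in replicate 1 and 0% of the Tnnc2 body in replicate 2. In those replicates at least, the peak of the region lay outside the gene, within 10 kb of a TSS.

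The 12 genes of the slow list were covered about as sparsely as all genes, with a median lower share of 0.775% for RNAP2 and 0% for REV-ERBα and BMAL1, against 0.746%, 0% and 0%. An RNAP2 region was found at 8 of them, a REV-ERBα region at 1 and a BMAL1 region at 1, where 41.1%, 4.44% and 6.81% of all genes had one. Unlike Myh7, some slow genes had a narrow but strong RNAP2 region over the body or within 10 kb of a TSS. The −log10 p was 12.4 and 7.74 at the slow calcium pump gene Atp2a2 and 11.4 and 4.93 at Myl6b. It was 10.3 and 6.19 at Tnnt1 and 10.2 and 3.76 at Tnnc1. In replicate 2, RNAP2 peaks covered 0% of the Tnnt1 and Tnnc1 bodies, so there the peak of that replicate, at least, lay outside the gene. Whether such regions belong to neighbouring genes was not tested. The RNAP2 share of the lower replicate was largest in the myosin light chain gene Myl6b (6.67%), the myoglobin gene Mb (4.05%) and the tropomyosin gene Tpm3 (1.90%), and it was 0% in Myl2, Myoz2, Tnnc1 and Tnnt1. The REV-ERBα region was at Mb, with −log10 p of 3.02 and 4.35, and the slow myosin binding protein gene Mybpc1 had 2 BMAL1 regions, the stronger with 3.09 and 2.69. No gene of the slow list reached the lowest RNAP2 share of the fast list, 17.3%.

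**Figure D5:**
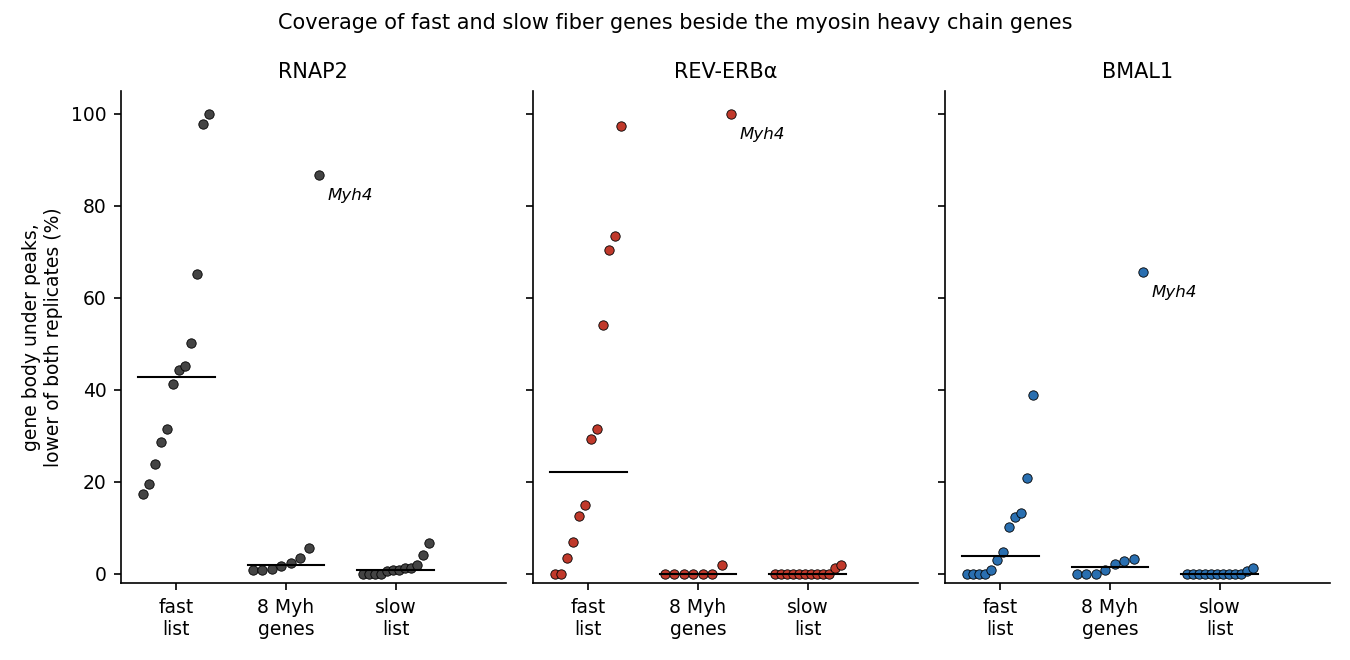
Share of the gene body under peaks (percent, lower of the 2 replicates) for the 12 fast list genes, the 8 myosin heavy chain genes and the 12 slow list genes, in a panel for each factor. Points are genes, ordered by value, and lines are medians, which for RNAP2 are 42.8%, 2.02% and 0.775%. For RNAP2, Myh4 lies within the range of the fast list, and the other 7 myosin genes lie within that of the slow list.

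Among 16 genes listed as regulators of fiber type, 9 had an RNAP2 region, 1 a REV-ERBα region and 3 a BMAL1 region. Of all genes, 41.1%, 4.44% and 6.81% had one. The RNAP2 share of the body in the lower replicate was 3.97% in Vgll2 and 2.30% in Mef2d, and the lowest shares were those of Rcan1 (0.495%) and Prox1 (0.581%). Mef2d, a factor that binds MEF2 motifs, had 3 REV-ERBα regions, the strongest with −log10 p of 4.15 and 5.65. BMAL1 regions were at Mef2c (2 regions, the stronger with 3.53 and 2.35), at Sox6, a repressor of slow genes (2.01 and 2.11), and at the calcineurin target Nfatc2 (1.87 and 1.36), each as −log10 p in replicates 1 and 2. The count of BMAL1 regions here is over long genes, of 125 kb to 568 kb.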

How the data were processed

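ChIP-seq was performed by the authors on gastrocnemius. Per the labels and the study's methods, reads were mapped to mm10 with BWA 7.12, duplicates and multi-mapping reads were removed, replicates of a factor were down-sampled to similar depth, and peaks were called per replicate with MACS2 2.1.1 against input at a p-value of 0.05. The deposited peak lists give a fold enrichment over input at the summit, a −log10 p-value, a −log10 q-value and a display score (the score was not used), as the authors' caller wrote them. For peak calling the authors did not pool replicates, though they merged replicate tracks for heatmaps and combined replicate peak tables.

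Peaks on the main chromosomes were set against GENCODE M21 genes and RefSeq promoters on GRCm38 with Python 3.11.15 and numpy 2.4.6. Overlapping peaks of a factor's replicates were merged, and regions with a peak in each were kept. Coverage is the percent of a gene body under peaks. No test was made, since a factor had 2 replicates. Merging and overlap were tested on simulated intervals. The genes and lists were chosen with earlier results of these data known. Named were the 8 genes and, of each list, those with REV-ERBα or BMAL1 regions (at most 4 for each factor, by the lower −log10 p) and the 3 highest and 2 lowest by RNAP2 coverage, with ties, and 1 gene that this rule names is not reported here. The input library is not analysed here.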

Additional observations from a re-analysis of the deposited data

How the results depend on the processing

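At a −log10 p of at least 3, the mean share of the Myh4 body under peaks was 87.0% for RNAP2, 100% for REV-ERBα and 70.8% for BMAL1, and with lists of equal length it was 87.9%, 100% and 74.7%. The counts of shared regions rested on the lenient threshold. At a −log10 p of at least 3, the genes with an RNAP2 region fell to 2 and with a BMAL1 region to 1, and REV-ERBα regions fell to 2. At a −log10 q of at least 1.3, RNAP2 kept 3 regions at 1 gene, REV-ERBα 1 region and BMAL1 1 region at 1 gene. Asking for an overlap of at least 0.5 of the shorter peak left BMAL1 regions at 1 gene. A distance of 5 kb in place of 10 kb changed none of the counts of regions or genes. With 1 list in place of 2, regions numbered 38 to 49 for RNAP2 (genes 8 to 8), 9 to 13 for REV-ERBα (genes 3 to 4) and 14 to 42 for BMAL1 (genes 6 to 8). These counts are larger because no match in a second list was required, and the longest list, BMAL1 replicate 2, gave the 42. No paired analysis was possible because no comparison was tested.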

Other observations

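A list of 5 other myosin heavy chain genes, which serve nonmuscle and smooth muscle cells and a few muscle types, was sparsely occupied. RNAP2 regions were found at the nonmuscle genes Myh9 (2 regions, the stronger with −log10 p of 13.2 and 6.31) and Myh10 (10.5 and 5.52), each stronger than the regions of Myh2, Myh1 and Myh8. The lower RNAP2 share of the body was 1.73% in Myh9, 0.924% in Myh10, 0.91% in Myh14, 0.419% in smooth muscle Myh11 and 0% in Myh7b. No REV-ERBα region was found at the 5 genes, and 1 BMAL1 region was found at Myh11, with −log10 p of 2.47 and 1.40. Myhas, the antisense transcript that starts beside the Myh4 promoter, was covered by RNAP2 to 8.56% and 14.1%, and the antisense transcript Mhrt at Myh7 to 0% and 9.57%.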
